A study of Mus musculus with 2 samples.

Results

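The clustered protocadherins are cell surface adhesion proteins encoded in 3 tandem gene clusters, Pcdha, Pcdhb and Pcdhg. Members were all rows whose Ensembl identifier maps to a mouse symbol that starts with Pcdha, Pcdhb or Pcdhg, which gave 57 identifiers of the 32285 in the count tables. They comprise 12 alternate Pcdha genes, 22 Pcdhb genes, 12 Pcdhga genes, 6 Pcdhgb genes and the 5 C-type genes Pcdhac1, Pcdhac2, Pcdhgc3, Pcdhgc4 and Pcdhgc5. The symbol Pcdha11 belongs to 2 identifiers, ENSMUSG00000007440 and ENSMUSG00000102206, which were kept apart. Pcdhgb8 was not analysed here.

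Nuclei of the amygdala were profiled by droplet sequencing with the 10x 5' kit, which tags transcripts near their start, from C57BL6/J mice aged 6 to 8 weeks. The first library was labelled Sema6d-/- (KO), for loss of a transmembrane semaphorin that binds plexins, and the other was labelled WT. The part of Sema6d that is deleted, the number of animals per library and their sex were not stated in the labels. After filtering, the KO library held 7911 nuclei with 56736373 unique molecular identifiers (UMIs) and the WT library 10369 nuclei with 79305700 UMIs, and 128 barcodes occurred in both.

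Sema6d itself stood at 686 UMIs per 1000000 (CPM) over all KO nuclei, against 632 CPM over all WT nuclei. Its counts do not check the label, because tags from the start of the gene or from unspliced RNA can be counted whatever part is deleted. With 1 library per genotype no difference between the genotypes was tested. Every bracketed range is an exact 95% interval that covers counting error alone, so spread from animal to animal or from preparation to preparation is not in it.

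Each Pcdha and Pcdhg protein joins a variable first exon, which encodes the extracellular cadherin repeats and has its own promoter, to constant exons shared by the whole cluster. Pcdhb genes are single exons with no shared constant part. In neurons, alternate promoters are chosen stochastically, through CTCF and cohesin bound at promoters and distal enhancers, so that neighbouring cells carry different sets of isoforms. Isoforms bind their own kind on other cells, which is known to serve self-avoidance of neurites and astrocyte contacts. C-type genes lie at the end of the Pcdha and Pcdhg clusters and, unlike the alternate genes, are usually active in most cells of a given type. Pcdhgc4 is known for the survival of cortical interneurons, Pcdhac2 for the axons of serotonergic neurons and Pcdhgc3 for dendrite branching in the cortex.

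The 3 clusters lie on chromosome 18 of mm10 (GRCm38), all members on the plus strand. The 14 Pcdha members, C-type genes included, span 36930184 to 37187661, the 22 Pcdhb members 37264938 to 37524479, and the 21 Pcdhg members 37661793 to 37841873. A tag can be assigned to 1 member only where the start of its transcript differs from those of the others. In the first 500 bases of the annotated transcripts, every stretch of 50 bases was distinct from all other members for 28 of the 57, and at least 90% of stretches were distinct for 36. All 5 C-type genes were fully distinct by this measure, although the annotated first exon of Pcdhgc5 overlaps exons of every other Pcdhg member. Pcdhb16 and Pcdhb14 were fully distinct too. Pcdhgb5 had 71.6% distinct stretches, Pcdha11 ENSMUSG00000102206 had 47.2%, Pcdha11 ENSMUSG00000007440 had 49.2%, Pcdhb22, whose first exon overlaps that of Pcdhb21, had 9.98%, and Pcdhga4, whose annotation overlaps that of Pcdhgb1, had 0%. For these 5 members the counts could be split with a similar or an overlapping gene, so their values below are uncertain. The same limit holds for the other members under 90%. Among them were Pcdha3 at 60.3%, Pcdha4 at 66.1%, Pcdha12 at 71.8%, Pcdhgb4 at 72.3%, Pcdhb9 at 83.4% and Pcdhb11 at 84.0%. Of the alternate Pcdha genes only Pcdha8, at 95.6%, was above 90%. For 13 members an antisense gene overlaps, and whether the authors' counting used the strand is not given.

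Nuclei were assigned to classes by marker genes with no protocadherin among them. Excitatory neurons (with Slc17a7, Slc17a6, Tbr1 and Neurod2 among their markers) numbered 989 in KO and 1279 in WT, and inhibitory neurons (Gad1, Gad2, Slc32a1, Dlx6os1, Dlx1) 3341 in KO and 5667 in WT. There were 648 KO and 826 WT astrocytes, 1086 KO and 503 WT oligodendrocytes, 158 KO and 129 WT oligodendrocyte precursors, and 188 KO and 75 WT microglia. Nuclei of other classes carried some neuronal RNA. The summed level of the 5 neuronal genes Snap25, Syt1, Rbfox3, Celf4 and Snhg11 was 9898 CPM in KO and 8456 CPM in WT inhibitory neurons, and 773 CPM in KO and 957 CPM in WT astrocytes. It was 1039 CPM in KO and 1306 CPM in WT microglia, and all 5 genes were detected in every class. What part this RNA had in the protocadherin counts of glia was not tested.

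Protocadherin RNA was found in every class, and the classes differed in which cluster supplied it. Over all 57 members, excitatory neurons held 251 CPM in KO (242 to 260) and 240 CPM in WT (232 to 249). Inhibitory neurons held 307 CPM in KO (300 to 313) and 284 CPM in WT (280 to 289). In both libraries the level was higher in inhibitory than in excitatory neurons, by 1.22 times in KO (1.17 to 1.28) and 1.18 times in WT (1.14 to 1.23). Against all neurons, astrocytes were higher, at 1.33 times in KO (1.23 to 1.44) and 1.246 times in WT (1.16 to 1.34), and oligodendrocytes lower, at 0.847 times in KO (0.777 to 0.922) and 0.852 times in WT (0.757 to 0.957). Astrocytes held 388 CPM in KO (360 to 418) and 341 CPM in WT (318 to 366). Oligodendrocyte precursors, the dividing progenitors of the oligodendrocyte lineage, held 510 CPM in KO (451 to 575) and 387 CPM in WT (332 to 450), from 268 KO and 173 WT UMIs. Oligodendrocytes held 247 CPM in KO (227 to 268) and 233 CPM in WT (207 to 262). Microglia, which are not known for clustered protocadherins and serve as a background here, held 247 CPM in KO (195 to 310) and 289 CPM in WT (202 to 399), from 75 KO and 36 WT UMIs. These intervals overlap those of excitatory neurons, inhibitory neurons and oligodendrocytes in both libraries. In WT they overlap those of astrocytes and oligodendrocyte precursors too. The total over all members was thus not separated from this background in those classes.

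**Figure D1:**
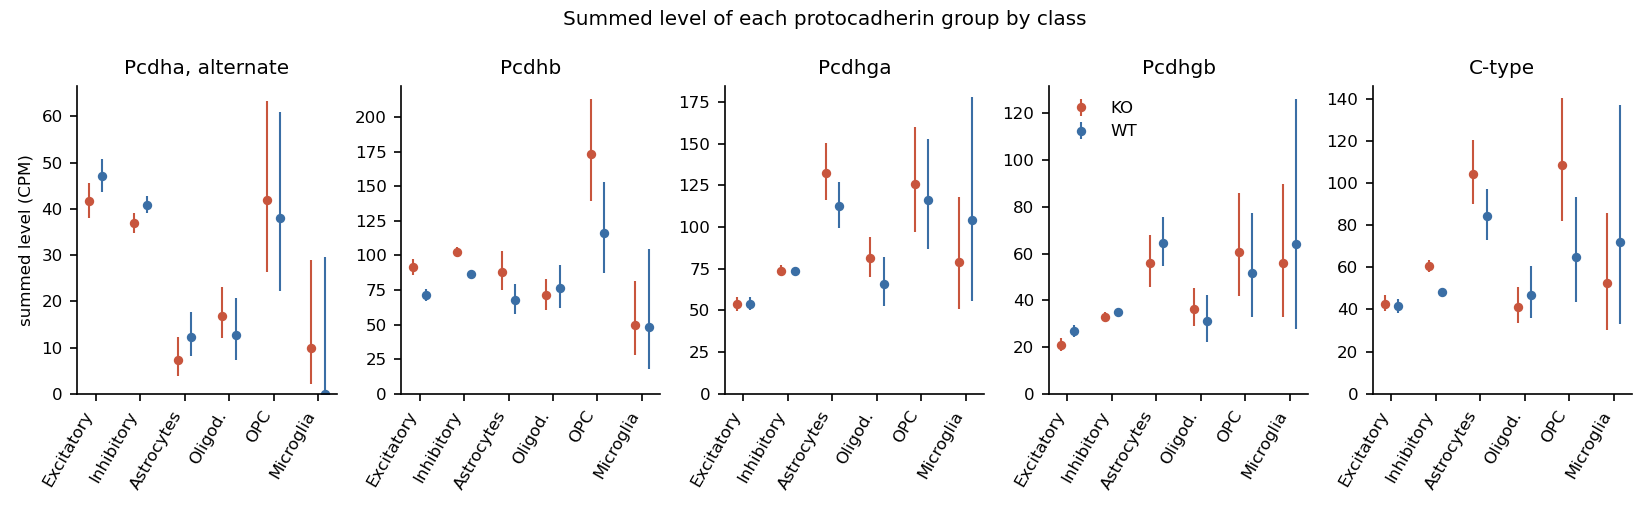
Summed level in CPM of the alternate Pcdha, Pcdhb, Pcdhga, Pcdhgb and C-type genes (1 panel each, with its own vertical scale) in 6 classes, KO left of WT; bars are exact 95% Poisson intervals. Alternate Pcdha genes stand at 7.21 CPM in KO and 12.2 CPM in WT astrocytes, against 36.9 CPM in KO and 40.8 CPM in WT inhibitory neurons. The Pcdhga sum and the C-type sum are higher in astrocytes than in neurons of either kind. Of the C-type UMIs of astrocytes, Pcdhgc3 gave 106 of 188 in KO and 90 of 193 in WT.

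Alternate Pcdha genes were low in astrocytes. Their summed level was 38.7 CPM in KO neurons (36.9 to 40.6) and 42.6 CPM in WT neurons (41.1 to 44.2). In astrocytes it was 7.21 CPM in KO (3.84 to 12.3) and 12.2 CPM in WT (8.12 to 17.7), from 13 KO and 28 WT UMIs. These genes gave 13.3% of all member UMIs in KO and 15.6% in WT neurons, against 1.86% in KO and 3.58% in WT astrocytes. The astrocyte level was 0.186 times that of neurons in KO (0.0990 to 0.319) and 0.287 times in WT (0.190 to 0.415). In oligodendrocytes it was 0.436 times in KO (0.308 to 0.601) and 0.299 times in WT (0.171 to 0.486). Oligodendrocyte precursors, with 22 KO and 17 WT UMIs, were not separated from neurons, at 1.08 times in KO (0.676 to 1.64) and 0.893 times in WT (0.519 to 1.43). In microglia 3 KO UMIs and 0 WT UMIs were counted. The count of 0 allows up to 24.0 CPM, which is below the level of WT neurons, and the 3 KO UMIs amount to 9.90 CPM (2.04 to 28.9).

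Pcdhga genes were higher in astrocytes than in neurons. They summed to 133 CPM in KO (116 to 150) and 113 CPM in WT astrocytes (99.3 to 127), which was 1.93 times the neuronal level in KO (1.68 to 2.20) and 1.62 times in WT (1.42 to 1.84). Pcdhgb genes stood at 1.88 times in KO (1.52 to 2.30) and 1.95 times in WT (1.64 to 2.30). In microglia, however, Pcdhga genes summed to 79.2 CPM in KO (50.7 to 118) and 104 CPM in WT (55.5 to 178), intervals that overlap those of astrocytes. The Pcdhgb genes of microglia stood at 1.88 times the neuronal level in KO (1.09 to 3.02) and 1.93 times in WT (0.834 to 3.82), so their level in astrocytes was not separated from that of microglia. Pcdhb genes were nearer to the neuronal level, at 0.889 times the neuronal level in KO (0.754 to 1.04) and at 0.825 times in WT astrocytes (0.699 to 0.967). Between neuron types, alternate Pcdha genes were lower in inhibitory than in excitatory neurons, at 0.886 times in KO (0.795 to 0.989) and 0.868 times in WT (0.794 to 0.949). Pcdhga genes were higher there, at 1.37 times in both KO (1.253 to 1.502) and WT (1.26 to 1.48).

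Levels of single members are set side by side per kilobase of annotated exon. Because the kit tags transcript starts, UMIs need not scale with exon length, so the undivided level is given beside it. Over all neurons, the median member stood at 0.796 CPM per kb in KO and 0.782 CPM per kb in WT. Per kilobase, Pcdhb16 stood at 4.01 in KO and 2.60 in WT, Pcdhgc5 at 3.33 in KO and 2.96 in WT, and Pcdhac2 at 2.57 CPM per kb in KO. Undivided, Pcdhgc5 had 25.4 CPM in KO and 22.6 CPM in WT neurons, Pcdhb16 had 20.95 CPM in KO and 13.6 CPM in WT, and Pcdhac2 had 15.1 CPM in KO and 11.6 CPM in WT. The order of Pcdhb16 and Pcdhgc5 in KO thus depends on the scale, and undivided the first 3 genes come in the same order in both libraries. Pcdhb1 was lowest in both, at 0.0510 CPM per kb in KO and 0.0276 CPM per kb in WT neurons. It had no UMI in either library in D1 neurons, D2 neurons or MGE interneurons, the subtypes described below. In excitatory and in inhibitory neurons as a whole every member, Pcdhb1 included, had at least 1 UMI in both libraries. In glia many members were not seen at this depth. Of the 57, 6 in KO and 4 in WT were at 0 in astrocytes, 4 in KO and 8 in WT in oligodendrocytes, 6 in KO and 12 in WT in oligodendrocyte precursors, and 29 in KO and 36 in WT in microglia.

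**Figure D2:**
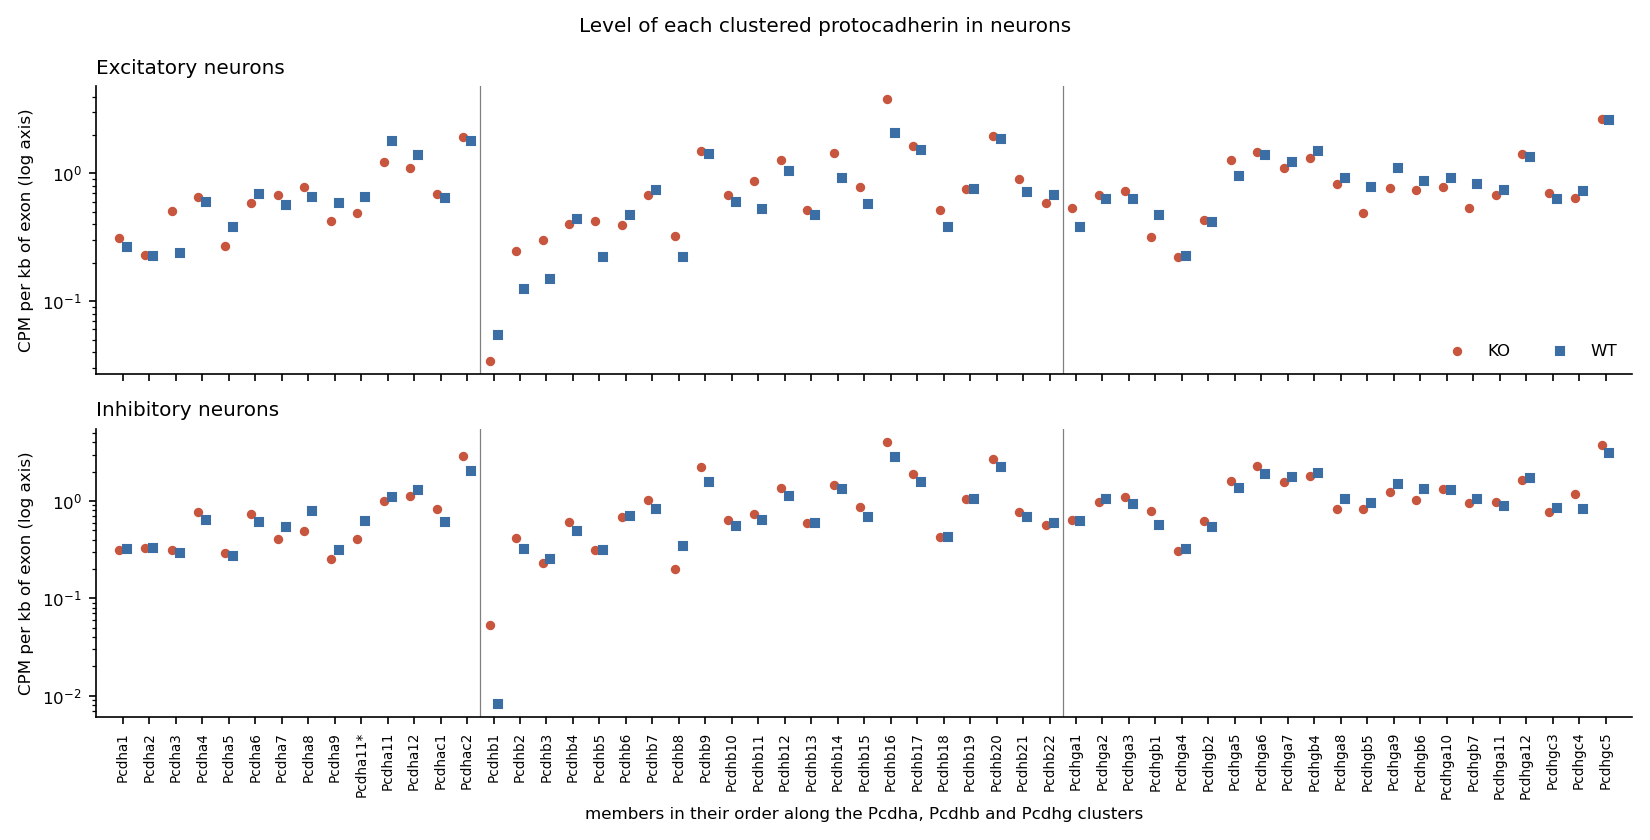
Level of each of the 57 members in excitatory (upper) and inhibitory neurons (lower), in CPM per kilobase of exon on a log axis, with the members in their order along the 3 clusters and KO left of WT. The point for Pcdhb16 in KO stands above that in WT in both panels, Pcdhb1 is lowest, and the star marks Pcdha11 ENSMUSG00000007440.

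The C-type genes differed from each other in the classes where they were high. Pcdhgc3 was higher in astrocytes and oligodendrocyte precursors than in neurons. It stood at 58.8 CPM in KO astrocytes (48.1 to 71.1) and 39.3 CPM in WT astrocytes (31.6 to 48.3), and at 79.9 CPM in KO (57.6 to 108) and 42.5 CPM in WT oligodendrocyte precursors (25.6 to 66.4). In neurons it had 4.37 CPM in KO (3.79 to 5.03) and 4.53 CPM in WT (4.04 to 5.06). The astrocyte level was thus 13.4 times that of neurons in KO (10.5 to 17.1) and 8.67 times in WT (6.78 to 10.99). Oligodendrocyte precursors stood at 18.3 times the neuronal level in KO (12.8 to 25.6) and 9.39 times in WT (5.58 to 14.9). Oligodendrocytes were between, at 14.2 CPM in KO (9.73 to 20.1) and 14.3 CPM in WT (8.50 to 22.7). Microglia had 4 KO UMIs, or 13.2 CPM (3.60 to 33.8), and 0 WT UMIs. It led all members in astrocytes on both scales, at 10.7 CPM per kb in KO and 7.14 CPM per kb in WT.

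On both scales Pcdhgc5 was the highest C-type gene over all neurons, at the values given above. It had 28.4 CPM in KO (26.5 to 30.4) and 23.8 CPM in WT inhibitory neurons (22.4 to 25.2), and 20.2 CPM in KO (17.7 to 23.0) and 19.98 CPM in WT excitatory neurons (17.7 to 22.5). MGE interneurons, marked by Lhx6, Nxph1, Sox6, Sst and Pvalb, were low, at 4.38 CPM in KO (2.001 to 8.31) and 12.5 CPM in WT (8.23 to 18.2). Astrocytes held 28.8 CPM in KO and 33.2 CPM in WT, so this gene did not separate neurons from glia. In microglia it stood at 33.0 CPM in KO (15.8 to 60.7) and 56.1 CPM in WT (22.6 to 116), from 10 KO and 7 WT UMIs, so its level in astrocytes was not separated from that of microglia.

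Pcdhgc4 and Pcdhac2 were higher in MGE interneurons than in D1 medium spiny neurons, unlike Pcdhgc5. Pcdhgc4 had 17.5 CPM in KO (12.3 to 24.2) and 11.6 CPM in WT MGE interneurons (7.48 to 17.1), against 1.90 CPM in KO (0.982 to 3.32) and 2.43 CPM in WT D1 medium spiny neurons (1.64 to 3.47), the Drd1 projection neurons of striatal type. Pcdhac2 had 24.3 CPM in KO (18.04 to 32.1) and 24.0 CPM in WT MGE interneurons (17.96 to 31.5). In D1 neurons it had 11.7 CPM in KO (9.20 to 14.7) and 9.33 CPM in WT (7.70 to 11.2). The levels of MGE and D1 neurons did not overlap within their intervals for either gene, in either library. Pcdhac1 had 4.53 CPM in KO and 3.27 CPM in WT inhibitory neurons, and 0 UMIs in KO astrocytes, against 3 UMIs in WT astrocytes.

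Along the whole order of 13 subtypes and glial classes, ranked by level, adjacent classes were rarely separated. Neighbours in rank are closest in level, so these counts do not show whether classes further apart differ. For Pcdhgc3, the interval of the ratio left out equal levels in 1 of the 12 neighbouring pairs in KO and 1 of 12 in WT. For the other C-type genes this held for none of the 12 pairs in either library.

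**Figure D3:**
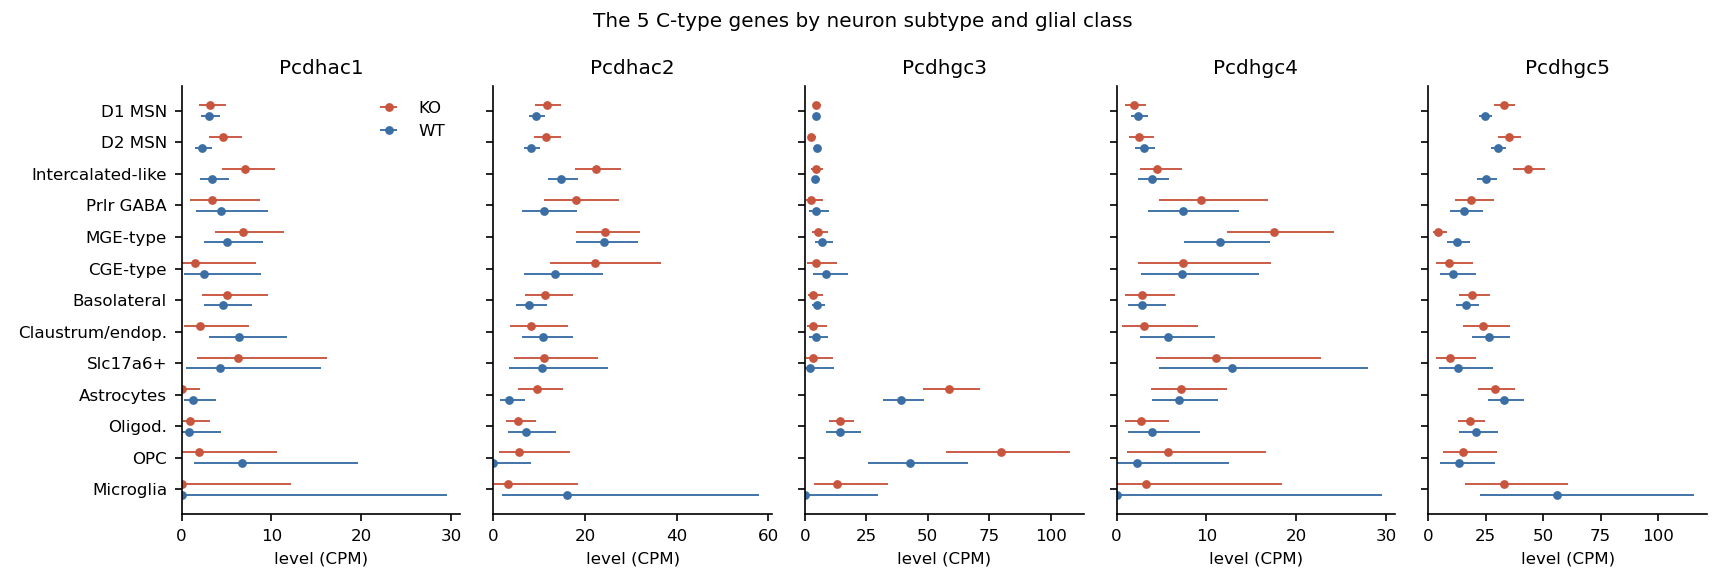
Level in CPM of the 5 C-type genes in 9 neuron subtypes and 4 glial classes, KO above WT in each row, with exact 95% Poisson intervals and a separate horizontal scale per gene. Pcdhgc3 reaches 58.8 CPM in KO and 39.3 CPM in WT astrocytes against 4.59 CPM in KO and 4.62 CPM in WT D1 neurons, while Pcdhgc4 and Pcdhac2 are high and Pcdhgc5 is low in MGE interneurons.

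The comparison of the KO with the WT library asked whether the choice or the amount of protocadherin RNA differed between them, class by class. The libraries differed in makeup, so the broad classes were not matched for subtypes. D1 neurons were 8.47% of KO and 12.9% of WT nuclei, and D2 neurons 8.06% of KO and 13.1% of WT nuclei. Oligodendrocytes were 13.7% of KO and 4.85% of WT nuclei. A member was counted as higher or lower where it had at least 20 UMIs over both libraries, differed at least 1.5-fold, and had an interval of the ratio that left out equal levels. In excitatory neurons, 4 of 55 members that met the UMI minimum were higher in KO, namely Pcdha3, Pcdhb11, Pcdhb14 and Pcdhb16, and 1, Pcdhgb5, was lower. Over all 15549 genes with that minimum, 5.24% were higher and 3.14% lower, so the members' counts are near the background. Among genes up to the UMIs of the strongest member, 8.36% were higher and 4.36% lower. With the trimmed mean of M-values (TMM) as scale the split was 2 higher and 4 lower, the 4 being Pcdha11 ENSMUSG00000102206, Pcdhgb5, Pcdhga9 and Pcdhgb7. In inhibitory neurons 0 of 56 members were higher and 3 were lower, namely Pcdha8, Pcdha11 ENSMUSG00000007440 and Pcdhb8, beside 5.30% of all genes higher and 2.67% lower, and 7.77% higher and 3.58% lower up to the UMIs of the strongest member. The 0 higher members came with no test, and a lower fold limit gave 6. No member passed in the same direction in both neuron types. The median log2 ratio of the members was 0.09 in excitatory and 0.04 in inhibitory neurons, against 0.05 in excitatory and 0.05 in inhibitory neurons for all genes tested. Among genes up to the UMIs of the strongest member it was 0.10 in excitatory and 0.10 in inhibitory neurons.

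By gene group, the summed levels differed in direction. Of the Pcdhb genes, 15 of 20 that met the minimum had a log2 ratio above 0 in excitatory neurons. There 56.3% of all tested genes did, and 60.3% of those up to the UMIs of the strongest member. In inhibitory neurons 16 of 21 did, beside 57.9% of all tested genes and 61.1% in that UMI range. The other 2 Pcdhb genes in excitatory neurons and the other one in inhibitory neurons had too few UMIs. Summed, Pcdhb genes had 91.6 CPM in KO (86.1 to 97.3) and 71.2 CPM in WT excitatory neurons (66.9 to 75.7), a log2 ratio of 0.36 (0.24 to 0.49). In inhibitory neurons they had 102 CPM in KO (98.7 to 106) and 86.6 CPM in WT (84.0 to 89.3), a log2 ratio of 0.24 (0.17 to 0.31). Alternate Pcdha genes were lower in KO as a sum, at 41.6 CPM in KO and 47.0 CPM in WT excitatory neurons (log2 ratio -0.18, -0.35 to -0.00). In inhibitory neurons they were at 36.9 CPM in KO and 40.8 CPM in WT (log2 ratio -0.15, -0.25 to -0.04). Pcdhga genes did not differ beyond counting error, at 53.9 CPM in KO and 54.0 CPM in WT excitatory neurons (log2 ratio -0.00, -0.16 to 0.15) and 73.9 CPM in KO and 73.8 CPM in WT inhibitory neurons (log2 ratio 0.00, -0.08 to 0.08). Pcdhgb genes were at 20.9 CPM in KO and 26.8 CPM in WT excitatory neurons (log2 ratio -0.36, -0.60 to -0.12), where 5 of 6 members were below 0. In inhibitory neurons the Pcdhgb ratio was -0.09 (-0.20 to 0.03).

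Pcdhb16 had the widest ratio of the 3 Pcdhb genes with most neuronal UMIs, the others being Pcdhb14 and Pcdhb20. It is a single exon of 5.225 kb at 37477814 to 37483038. In excitatory neurons it had 228 UMIs or 19.9 CPM in KO (17.4 to 22.7), against 153 UMIs or 10.8 CPM in WT (9.16 to 12.7), a log2 ratio of 0.88 (0.58 to 1.19). In inhibitory neurons it had 21.2 CPM in KO and 14.9 CPM in WT, a log2 ratio of 0.51 (0.35 to 0.67), which is under 1.5-fold. The KO level was the higher in each of these classes, with no overlap of the intervals. Pcdhb14 had 12.6 CPM in KO (10.6 to 14.8) and 8.05 CPM in WT excitatory neurons (6.64 to 9.67), a log2 ratio of 0.65 (0.28 to 1.01). In inhibitory neurons it had 12.7 CPM in KO and 11.4 CPM in WT, with an interval that spans 0 (-0.04 to 0.35). Pcdhb20 had 6.998 CPM in KO and 6.57 CPM in WT excitatory neurons, with an interval that spans 0 (-0.36 to 0.54). In inhibitory neurons it had 9.62 CPM in KO and 7.93 CPM in WT, a log2 ratio of 0.28 (0.05 to 0.51). The Pcdhb difference thus varied from gene to gene, and Pcdhb6 stood lowest in excitatory neurons with a log2 ratio of -0.25.

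The alternate Pcdha genes stood on both sides of equal levels. In excitatory neurons 6 of the 12 had ratios above 0, Pcdha1, Pcdha2, Pcdha3, Pcdha4, Pcdha7 and Pcdha8, and the other 6 had ratios below 0. In inhibitory neurons 4 were above 0, Pcdha3 to Pcdha6, and 8 below. Most of these ratios had intervals that span 0. Pcdha11 ENSMUSG00000102206, which had the most UMIs of the alternate Pcdha genes, stood at 9.19 CPM in KO (7.51 to 11.1) and 13.4 CPM in WT excitatory neurons (11.6 to 15.5), a log2 ratio of -0.55 (-0.90 to -0.20). In inhibitory neurons it had 7.55 CPM in KO and 8.36 CPM in WT, with an interval that spans 0 (-0.39 to 0.10). Pcdha12 had 5.86 CPM in KO and 7.49 CPM in WT excitatory neurons and 5.99 CPM in KO and 6.89 CPM in WT inhibitory neurons, with intervals that span 0 in both. Pcdha3 had 31 KO UMIs and 18 WT UMIs in excitatory neurons and a log2 ratio of 1.09 (0.21 to 2.02), but 0.10 (-0.45 to 0.65) in inhibitory neurons. Pcdha4 stood at 4.47 CPM in KO and 3.67 CPM in WT inhibitory neurons (log2 ratio 0.28, -0.06 to 0.62), and at 3.76 CPM in KO and 3.46 CPM in WT excitatory neurons (0.12, -0.51 to 0.74). Pcdha8, at 2.63 CPM in KO and 4.24 CPM in WT inhibitory neurons (log2 ratio -0.69, -1.09 to -0.30), had 0.28 (-0.33 to 0.88) in excitatory neurons. The signs of Pcdha8 thus differed between the neuron types, and the difference between them was not tested.

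In the Pcdhg cluster the members with most UMIs were close between the libraries. Pcdhga12 had 9.54 CPM in KO and 8.97 CPM in WT excitatory neurons, and 10.8 CPM in KO and 11.49 CPM in WT inhibitory neurons, with intervals that span 0. Pcdhga6 had 6.998 CPM in KO and 6.57 CPM in WT excitatory neurons, and 10.8 CPM in KO and 9.01 CPM in WT inhibitory neurons (log2 ratio 0.26, 0.05 to 0.48). Pcdhga7 had log2 ratios of -0.15 in excitatory (-0.63 to 0.32) and -0.16 in inhibitory neurons (-0.39 to 0.07). Of the Pcdhgb genes, Pcdhgb4 had 10.4 CPM in KO and 11.3 CPM in WT inhibitory neurons (log2 ratio -0.13, -0.33 to 0.08), and 7.61 CPM in KO and 8.76 CPM in WT excitatory neurons (-0.20, -0.61 to 0.20). Pcdhgb5 had 3.32 CPM in KO (2.35 to 4.56) and 5.23 CPM in WT excitatory neurons (4.10 to 6.56), a log2 ratio of -0.65 (-1.26 to -0.07). Pcdhgb6 had 4.78 CPM in KO and 6.28 CPM in WT inhibitory neurons, a log2 ratio of -0.39 (-0.70 to -0.10). It had 3.499 CPM in KO and 4.10 CPM in WT excitatory neurons, with an interval that spans 0 (-0.85 to 0.38). No Pcdhgb gene passed 1.5-fold in inhibitory neurons, where Pcdhgb1 stood highest of the 6 at a log2 ratio of 0.48.

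**Figure D4:**
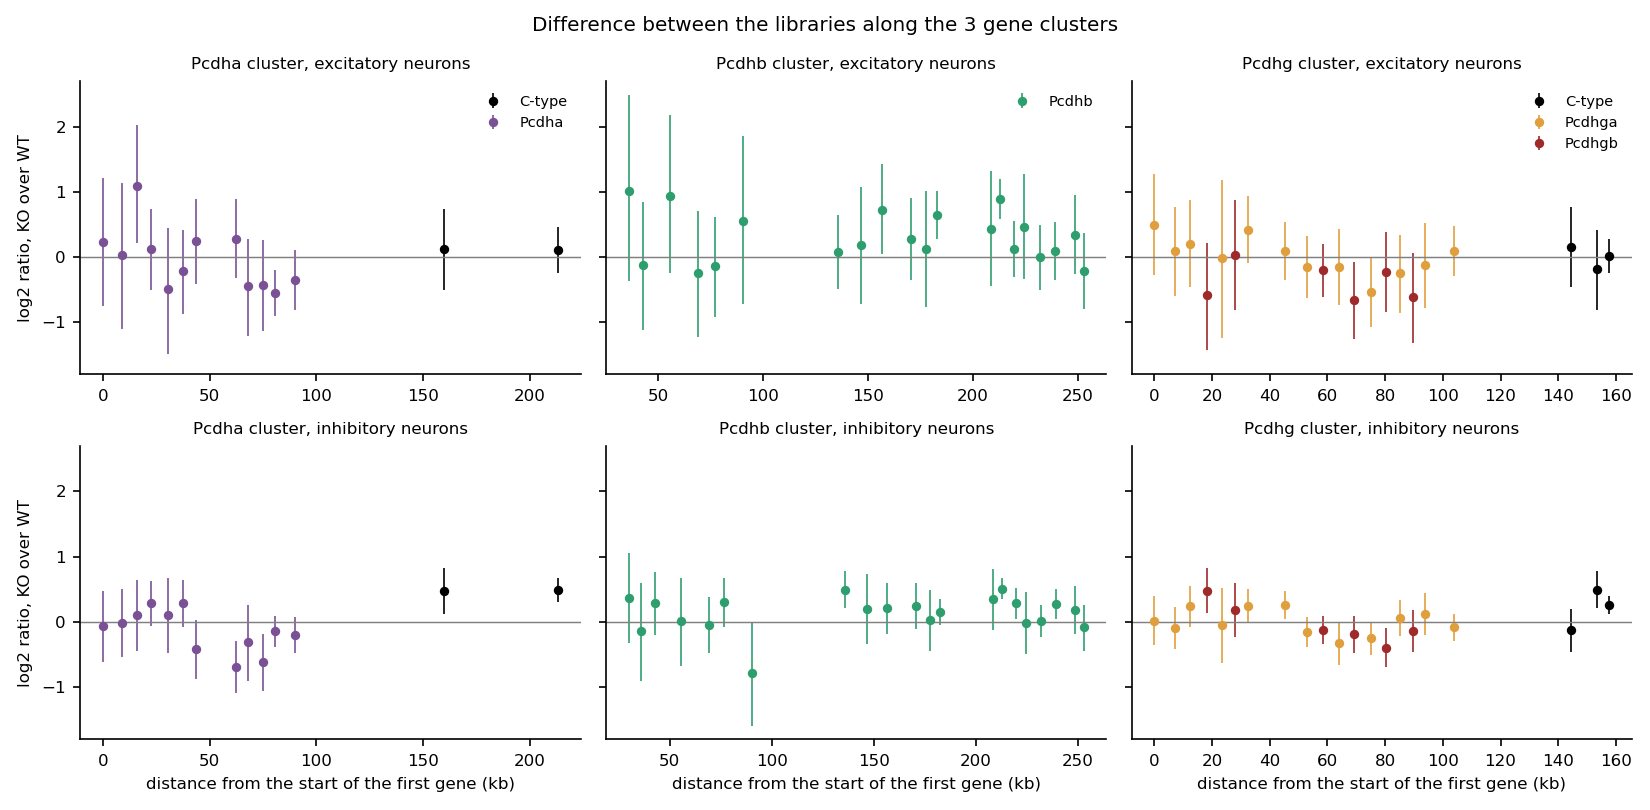
Log2 ratio of CPM in KO over WT for each member with at least 20 UMIs, against the distance in kb of its annotated start from that of the first gene of its cluster, for excitatory (upper) and inhibitory neurons (lower); bars are exact 95% intervals and colours mark the groups. Most Pcdhb points lie above 0, 6 of 12 alternate Pcdha points in excitatory and 8 of 12 in inhibitory neurons lie below 0, and C-type genes in inhibitory neurons lie above 0 except Pcdhgc3.

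C-type genes were higher in KO as a sum in inhibitory neurons. Their sum was 60.6 CPM in KO (57.8 to 63.6) and 48.4 CPM in WT inhibitory neurons (46.4 to 50.4), a log2 ratio of 0.33 (0.24 to 0.42). In excitatory neurons it was 42.8 CPM in KO and 41.5 CPM in WT (log2 ratio 0.04, -0.13 to 0.22). The difference between the neuron types was not tested. In inhibitory neurons, 4 of the 5 genes stood above 0. Pcdhac2 had 16.9 CPM in KO and 12.05 CPM in WT (log2 ratio 0.49, 0.31 to 0.66), and Pcdhgc4 had 6.54 CPM in KO and 4.64 CPM in WT (log2 ratio 0.49, 0.21 to 0.78). The ratio was 0.47 for Pcdhac1 (0.13 to 0.82) and 0.26 for Pcdhgc5 (0.13 to 0.39). None of these reached 1.5-fold. Pcdhgc3 was the exception, with -0.13 (-0.46 to 0.20).

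Among inhibitory subtypes, the intercalated-like neurons (Foxp2, Tshz1, Pbx3 and Oprm1, 514 KO and 806 WT nuclei) had the highest C-type ratio of the 9 neuron subtypes. The C-type sum was 81.9 CPM in KO (72.8 to 91.9) and 51.6 CPM in WT (45.8 to 57.9), a log2 ratio of 0.67 (0.43 to 0.91). Pcdhgc5 had 43.5 CPM in KO (36.9 to 50.9) and 25.3 CPM in WT (21.3 to 29.8), Pcdhac2 had 22.4 CPM in KO and 14.8 CPM in WT, and Pcdhac1 had 7.01 CPM in KO and 3.36 CPM in WT. These 3, with Pcdhb16 and Pcdhgb1, were the 5 of 42 members higher in KO there, against 3.33% of all genes and 4.97% of those up to the UMIs of the strongest member, and Pcdha8 was the 1 lower member, against 2.75% and 3.92%. The median log2 ratio of the 42 was 0.29, against 0.00 over all genes tested in this subtype. Pcdhgb genes summed to 46.6 CPM in KO and 35.9 CPM in WT intercalated-like neurons (log2 ratio 0.38, 0.07 to 0.68).

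D1 and D2 medium spiny neurons differed from each other in the Pcdhb genes by description, with no test of that difference. In D2 neurons (Drd2, Adora2a, Gpr6; 638 KO and 1356 WT nuclei) the Pcdhb sum was 123 CPM in KO (114 to 132) and 86.3 CPM in WT (81.0 to 92.0), a log2 ratio of 0.51 (0.36 to 0.65). In D1 neurons (670 KO and 1341 WT nuclei) it was 97.4 CPM in KO (89.9 to 105) and 90.7 CPM in WT (85.4 to 96.2), a log2 ratio of 0.10 (-0.04 to 0.25). Pcdhb16 showed the same order, with 24.4 CPM in KO and 14.0 CPM in WT D2 neurons (log2 ratio 0.81, 0.46 to 1.14) and 19.8 CPM in KO and 16.1 CPM in WT D1 neurons (0.30, -0.03 to 0.63). In D2 neurons 5 of 50 members were higher, Pcdhac1, Pcdhb2, Pcdhb9, Pcdhb16 and Pcdhga5, beside 4.27% of all genes and 6.14% of those up to the UMIs of the strongest member. Another 5 were lower, Pcdha11 ENSMUSG00000007440, Pcdha12, Pcdhga8, Pcdhgb7 and Pcdhgc3, beside 2.82% of all genes and 3.66% in that UMI range. In D1 neurons 1 of 51 was higher (Pcdhb9), beside 3.81% of all genes and 5.67% in that range. There 1 was lower, beside 3.0% and 3.92%, namely Pcdhb22, whose first exon overlaps that of Pcdhb21. Pcdhb9 was the only member higher in both, at 9.03 CPM in KO and 4.37 CPM in WT D2 neurons and 7.13 CPM in KO and 4.14 CPM in WT D1 neurons.

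In MGE interneurons (224 KO and 257 WT nuclei) Pcdhgc5 was the 1 of 22 members lower in KO, beside 2.99% of all genes and 3.72% of those up to the UMIs of the strongest member, and 0 were higher, beside 3.22% and 5.03%. Its 9 KO UMIs and 27 WT UMIs give a log2 ratio of -1.51 (-2.79 to -0.38), which was -0.17 when nuclei were grouped by clustering in place of marker gates. Some summed marker levels of the gated MGE nuclei differed between the libraries. Pvalb stood at 18.5 CPM in KO and 33.8 CPM in WT, Sst at 718 CPM in KO and 617 CPM in WT, and Lhx6 at 128 CPM in KO and 126 CPM in WT. Whether the mix of nuclei differed, and what part that had in the Pcdhgc5 value, was not tested. In basolateral neurons (147 KO and 239 WT nuclei, marked by Rspo2, Rorb, Etv1, Bdnf and Neurod6), Pcdhb14 and Pcdhb16 were the 2 of 22 members higher in KO, beside 5.67% of all genes and 7.27% of those up to the UMIs of the strongest member, and 0 were lower, beside 3.45% and 3.70%. Pcdhb16 had 20.8 CPM in KO (14.6 to 28.7) and 8.80 CPM in WT (5.69 to 13.0). Pcdhb14 had 16.9 CPM in KO and 7.39 CPM in WT there, a log2 ratio of 1.19 that was 0.33 when 1 more marker or UMI was required. In claustrum or endopiriform neurons (82 KO and 145 WT nuclei), Pcdha12 had 0 UMIs in KO, which allows up to 3.10 CPM, and 15 UMIs or 9.60 CPM in WT (5.37 to 15.8). It was below the 20-UMI minimum. In these neurons 0 of 6 members with enough UMIs passed in either direction, beside 4.66% of all genes higher and 4.83% lower. The same held for 0 of 14 in Prlr GABA neurons (3.88% of all genes higher, 3.54% lower). In CGE-type interneurons it was 0 of 2 (3.47% higher, 4.04% lower), and in Slc17a6 thalamic or Sim1 neurons 0 of 2 (4.78% higher, 5.32% lower).

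In glia few members had enough UMIs. In astrocytes 2 of 24 were higher in KO, beside 4.42% of all genes and 5.23% of those up to the UMIs of the strongest member, and 0 were lower, beside 4.26% and 4.83%. They were Pcdhga6, at 23.9 CPM in KO (17.3 to 32.1) and 14.4 CPM in WT (9.91 to 20.2), and Pcdhac2, with 17 KO UMIs and 8 WT UMIs. Pcdhgc3 in astrocytes had a log2 ratio of 0.58 (0.16 to 1.004), just under the 1.5-fold limit. In oligodendrocyte precursors Pcdhgc3 was the 1 of 3 members higher, beside 3.60% of all genes, and 0 were lower, beside 3.01%. It had 42 KO UMIs and 19 WT UMIs and a log2 ratio of 0.91 (0.10 to 1.77). Pcdhb genes there summed to 173 CPM in KO (139 to 213) and 116 CPM in WT (87.0 to 153). In oligodendrocytes 0 of 18 members were higher, beside 4.84% of all genes, and 0 were lower, beside 5.84%. The summed level of the 5 neuronal genes used in the gate, given above for astrocytes and microglia, was lower in KO in both. The other neuronal markers did not go this way in astrocytes. There the inhibitory markers stood at 195 CPM in KO and 186 CPM in WT, and the excitatory markers at 63.8 CPM in KO and 50.6 CPM in WT. In microglia the inhibitory markers stood at 271 CPM in KO and 273 CPM in WT, and the excitatory markers at 82.5 CPM in KO and 80.2 CPM in WT.

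Single nuclei held few of these molecules. Without thinning, 87.4% of KO and 85.8% of WT neurons had a UMI of at least 1 member, with means of 2.37 members per KO and 2.18 per WT nucleus and at most 12 in 1 nucleus of either library. After thinning each nucleus to 2000 UMIs, 40.3% of KO (37.2 to 43.4) and 39.9% of WT excitatory nuclei (37.2 to 42.6) and 47.3% of KO (45.5 to 49.0) and 44.1% of WT inhibitory nuclei (42.8 to 45.4) had one. In microglia the share was 46.2% of 26 KO nuclei and 40% of 10 WT nuclei deep enough to be thinned, and without thinning 31.9% of KO and 32.0% of WT microglia. Microglia had a median of 1551 UMIs in KO and 1602 UMIs in WT, against 10392 in KO and 10051 in WT excitatory neurons. The thinned share of excitatory neurons was at or below that of microglia in both libraries, although the few microglia leave wide intervals (26.6% to 66.6% in KO, 12.2% to 73.8% in WT). Shares of nuclei are therefore read as no more than background and are used for no comparison between classes.

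For most gene groups, UMIs of the same nucleus fell on the same gene more often than UMIs of different nuclei. For each group of genes, the share of UMI pairs that fell on the same gene was computed for pairs within a nucleus and for pairs from different nuclei. In inhibitory neurons, 19.6% of Pcdhb UMI pairs within a KO nucleus and 17.03% within a WT nucleus were of the same gene, against 9.37% between different KO nuclei and 8.39% between WT nuclei. That is 2.09 times as often in KO and 2.03 times in WT. For the alternate Pcdha genes it was 2.07 times in KO and 1.59 times in WT, and for Pcdhga with Pcdhgb 1.83 times in KO and 1.76 times in WT. Over all pairs the C-type genes were nearer to 1, at 1.35 times in KO and 1.18 times in WT. The list of 19 chromatin regulators, computed in the same way, stood at 1.13 times in KO and 1.13 times in WT.

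Excitatory neurons gave 1.93 times for Pcdhb in KO and 1.93 times in WT, 2.05 times in KO and 1.51 times in WT for Pcdhga with Pcdhgb, and 1.65 times in KO and 1.13 times in WT for alternate Pcdha genes. C-type genes stood at 1.20 times in KO and 1.14 times in WT, beside 1.14 times in KO and 1.16 times in WT for the chromatin list. Within single subtypes, Pcdhb pairs stood at 3.22 times in KO and 3.09 times in WT intercalated-like neurons. They stood at 1.52 times in KO and 2.11 times in WT D1 neurons, and at 1.93 times in KO and 1.81 times in WT D2 neurons. In MGE interneurons the values were 2.001 times in KO and 3.11 times in WT. Not every group went this way. Alternate Pcdha genes in WT basolateral neurons stood at 0.47 times, from 4 same-gene pairs of 62. Nor was the excess particular to neurons. In astrocytes Pcdhb pairs stood at 3.85 times in KO, from 17 same-gene pairs of 44, and at 3.26 times in WT, from 12 of 38. For Pcdhga with Pcdhgb it was 2.51 times in KO and 2.11 times in WT astrocytes, and the chromatin list stood at 1.30 times in KO and 1.23 times in WT. In oligodendrocytes Pcdhb pairs stood at 4.22 times in KO (12 of 35) and 2.37 times in WT (3 of 18), and Pcdhga with Pcdhgb at 3.25 times in KO (12 of 56) and 0 times in WT (0 of 23). The pairs share nuclei and libraries, and 1 nucleus with many UMIs gives many pairs, so no interval is given. The chromatin list had far more pairs, 379046 within KO and 637252 within WT inhibitory nuclei, against 2046 within KO and 2437 within WT nuclei for Pcdhb.

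Gene by gene, most but not all members showed this. In inhibitory neurons, 19 of 20 Pcdhb genes with enough UMIs in KO and 20 of 21 in WT were found again in their own nuclei more often than their share of the group, with medians of 3.31 times in KO and 2.46 times in WT. For Pcdhga with Pcdhgb it was 17 of 18 in KO and 18 of 18 in WT, and for alternate Pcdha genes 10 of 10 in KO and 10 of 12 in WT. By this measure C-type genes were not apart from alternate Pcdha genes in KO, with 5 of 5 and a median of 2.16 times in KO and 3 of 5 and 1.16 times in WT, beside Pcdha medians of 2.05 times in KO and 1.90 times in WT. In excitatory neurons the counts were 13 of 15 in KO and 15 of 17 in WT for Pcdhb, and 13 of 17 in KO and 13 of 17 in WT for Pcdhga with Pcdhgb. They were 6 of 8 in KO and 5 of 9 in WT for alternate Pcdha genes, with medians of 1.33 times in KO and 1.02 times in WT, and 3 of 4 in KO and 4 of 5 in WT for C-type genes. Pcdhb16, the Pcdhb gene with most UMIs, had 103 KO and 94 WT inhibitory nuclei with more than 1 of its UMIs, and at most 4 in 1 nucleus. In nuclei with a Pcdhb16 UMI, 31.0% of the further Pcdhb UMIs in KO and 29.5% in WT were again Pcdhb16, where its share of the group was 20.7% in KO and 17.2% in WT.

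The spread of single members over nuclei gave no such excess throughout. With nuclei thinned to 4000 UMIs, the variance over the mean of members with at least 20 UMIs had a median of 1.06 in 16 members in KO and 0.984 in 28 members in WT excitatory neurons. All genes in the same UMI range stood at 1.04 in KO and 1.03 in WT, and 11 of the 16 in KO and 9 of the 28 in WT lay above that median. In D1 neurons the medians were 1.08 in KO and 1.003 in WT, against 1.03 in KO and 1.02 in WT for the same range, with 11 of 14 in KO and 11 of 29 in WT above it. In D2 neurons 8 of 14 in KO and 13 of 27 in WT lay above. In WT the medians of the members thus stood at or below those of other genes in their UMI range.

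**Figure D5:**
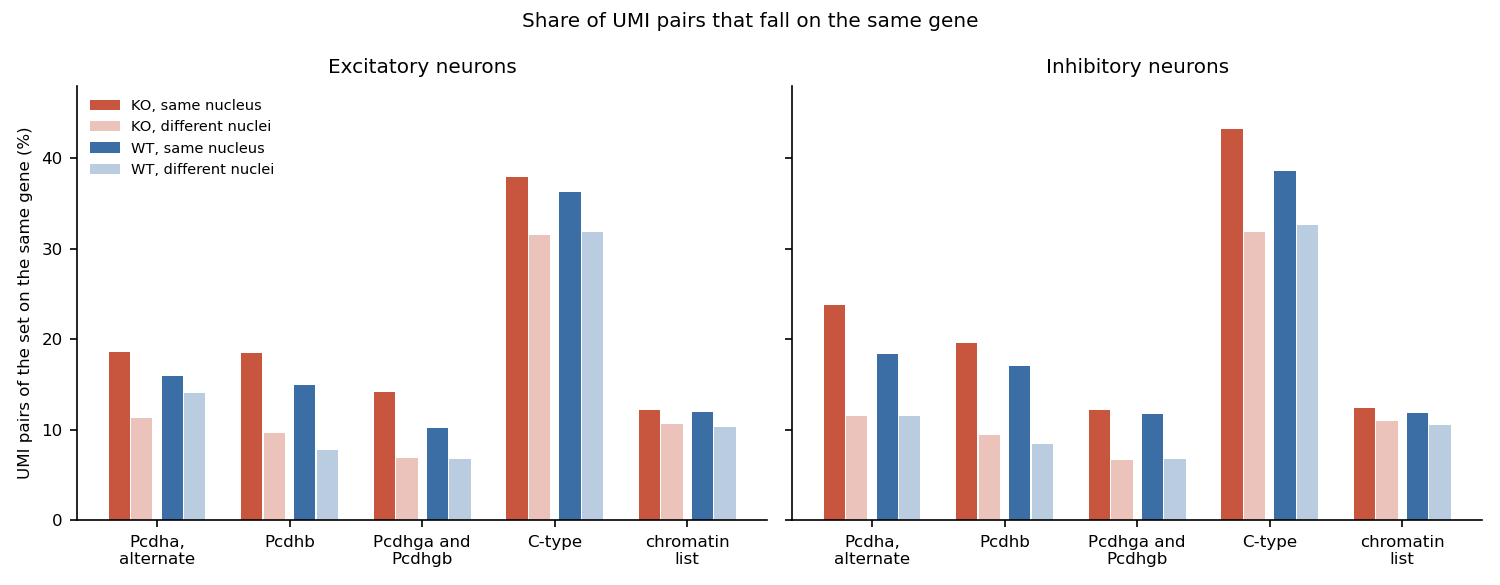
Percentage of UMI pairs of a gene group that fall on the same gene, for pairs within 1 nucleus (dark bars) and between different nuclei (pale bars), in excitatory (left) and inhibitory neurons (right), KO left of WT. For Pcdhb in inhibitory neurons the dark bars reach 19.6% in KO and 17.03% in WT and the pale bars 9.37% in KO and 8.39% in WT, while those of the chromatin list differ by 1.13 times in both.

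Genes around the pathway were counted in the same way, beside the background given above, where 5.24% of all genes were higher and 3.14% lower in excitatory and 5.30% higher and 2.67% lower in inhibitory neurons. Of 19 genes for chromatin and promoter choice, among them Ctcf, the cohesin subunits Rad21, Smc1a and Smc3, the cohesin loader Nipbl, the methyltransferase Dnmt3b and the silencers Setdb1 and Smchd1, 0 of 18 with enough UMIs in excitatory and 0 of 19 in inhibitory neurons passed the limits in either direction. Their median log2 ratio was -0.04 in excitatory and -0.02 in inhibitory neurons. Of 21 partners and signalling genes, such as the kinases Ptk2, Ptk2b and Fyn, the receptor kinase Ret and the WAVE complex gene Cyfip1, 0 of 21 passed in either neuron type, and the median log2 ratio was -0.08 in excitatory neurons and -0.07 in inhibitory neurons. Of 13 protocadherins outside the clusters, 12 had enough UMIs in each neuron type. Pcdh20 and Cdhr1 were higher in KO excitatory neurons, Pcdh8 and Cdhr1 in KO inhibitory neurons, and none was lower. That is 2 of 12 in each neuron type, with no test.

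In glia a few genes of the lists passed. In astrocytes 1 of 20 partners and signalling genes with enough UMIs was higher in KO (Marcks) and 1 was lower (Axin1). Over all genes 4.42% were higher and 4.26% lower there. In oligodendrocytes 1 of 18 chromatin genes was higher (Setdb1), beside 4.84% of all genes. There 1 of 20 partners and signalling genes (Fyn) and 1 of 10 protocadherins outside the clusters (Pcdh7) were lower, beside 5.84%. In oligodendrocyte precursors 1 of 17 chromatin genes was higher (Zfp143), beside 3.60% of all genes. In microglia 1 of 17 partners and signalling genes with enough UMIs was higher (Ctnnb1) and 3 were lower (Ptk2, Fyn and Nlgn1), beside 4.13% of all genes higher and 4.07% lower. Lists not named for a glial class had no gene past the limits there.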

How the data were processed

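The authors deposited 1 table of UMI counts per library, whole numbers per gene and barcode. Per the submitters' processing notes they were made with Cell Ranger 6.0.0 on mm10. How intronic, antisense or multi-gene reads were counted is not given in the sources used here. Members and lists were chosen with earlier results of these data known.

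Barcodes under 500 genes (143 KO, 12 WT), over 5% mitochondrially encoded UMIs (428 KO, 259 WT) or called as doublets by Scrublet in scanpy 1.11.5 (222 KO, 422 WT) were removed. This left a median of 6418 UMIs in KO and 7196 UMIs in WT nuclei, with 0.424% mitochondrially encoded UMIs in KO and 0.749% in WT. The 128 barcodes found in both libraries were kept. Neurons needed 30 UMIs of the neuronal genes per 10000, and 151 KO and 149 WT nuclei lay near that value. Glia needed 4 of 6 markers and less than 30 UMIs of the neuronal genes per 10000. The excitatory or inhibitory list needed at least 2 UMIs and 3 times those of the other, and 119 KO and 139 WT excitatory and 219 KO and 525 WT inhibitory nuclei lay at that minimum. Another 708 KO and 619 WT nuclei stayed unassigned.

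UMIs were summed per library and class and divided by the class total. Levels have exact Poisson intervals, ratios exact conditional binomial intervals and shares exact Clopper-Pearson intervals. A count of 0 was limited by 3 counts. Positions come from GENCODE vM21. The steps were tested on simulated data. Named were the C-type genes, the 3 members of each alternate group with most neuronal UMIs, members at 0, and members past the limits in both neuron types or 3-fold over every other class, of which there were none. In the 3-fold rule a class at 0 stood at 3 counts, which is 9.90 CPM in KO and 24.0 CPM in WT microglia. Members at 0 in microglia could thus hardly pass, and nothing on class specificity is drawn from that rule. Any other member was named with its values known. Alternatives used edgeR 4.0.16 (TMM), median-of-ratios, other filters, gates, depths and Leiden clusters.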

Additional observations from a re-analysis of the deposited data

Results flagged for a closer look

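C-type genes differed in opposite directions between classes, with intervals on either side of equal levels. The log2 ratio of KO over WT for Pcdhgc3 was 0.91 (0.10 to 1.77) in oligodendrocyte precursors, from 42 KO and 19 WT UMIs, and -0.93 (-1.86 to -0.09) in D2 medium spiny neurons, from 15 KO and 57 WT UMIs. For Pcdhgc5 it was 0.78 (0.45 to 1.12) in intercalated-like neurons, from 155 KO and 143 WT UMIs, and -1.51 (-2.79 to -0.38) in MGE interneurons, from 9 KO and 27 WT UMIs. With 1 library per genotype, the difference between the classes was not tested for either gene. The MGE value of Pcdhgc5 was -0.17 with clusters in place of marker gates.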

How the results depend on the processing

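Of 760 recomputed values for 125 results, 693 were classed as the same, 66 as moved and 1 as reversed. Ratios and shares were classed as the same where they stayed inside the 95% interval of the main value. Other kinds of value had limits of their own. A ratio was classed as reversed only where its main interval left out 0. Ratios with an interval that spans 0 could thus change sign and still be classed as the same, and such changes of sign were not counted. The reversal was Pcdhb11 in excitatory neurons, at -0.43 with nuclei thinned to 2000 UMIs. In excitatory neurons the count of members higher in KO was 2 with TMM, 2 with median-of-ratios, 2 after thinning and 1 at a 2-fold limit. The count lower was 4 with TMM, 4 with median-of-ratios, 2 with equal subtype weights, 3 at a lower fold limit and 0 at 2-fold. In inhibitory neurons the count higher was 2 after thinning and 6 at the lower limit, and the count lower was 0 with clusters, 1 after thinning and 0 at 2-fold. TMM moved the ratios of excitatory and inhibitory neurons by -0.06 each. The inhibitory log2 ratio of all members together was then 0.045, and 0.038 with median-of-ratios, where that of Pcdhb was 0.17. After thinning that of Pcdhga was 0.12. The median of the chromatin list in excitatory neurons was -0.10 with TMM and -0.11 with median-of-ratios. The cause of these changes was not tested. Without thinning, 88.8% of KO and 88.7% of WT excitatory and 89.2% of KO and 86.9% of WT inhibitory nuclei had a member UMI, with 2.57 members per KO and 2.48 per WT excitatory and 2.40 per KO and 2.20 per WT inhibitory nucleus. At 4000 UMIs the shares were 62.7% of KO and 62.1% of WT excitatory and 69.6% of KO and 67.1% of WT inhibitory nuclei, with 1.02 members per KO and 1.005 per WT excitatory and 1.22 per KO and 1.13 per WT inhibitory nucleus. The UMI pairs were also computed at 4000 UMIs, chosen after seeing the data. This gave 2.65 times for Pcdhb in KO inhibitory neurons, and for Pcdhga with Pcdhgb 2.36 times in WT excitatory, 2.17 times in KO inhibitory and 2.21 times in WT inhibitory neurons. Also chosen after seeing the data were the background of genes in the same UMI range, the order of classes without microglia and the pairs with doublets kept. No paired analysis was possible because each genotype has 1 library, and for the same reason no library could be left out.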
